A study of Homo sapiens with 10 samples.

Results

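The translation initiation factor genes were taken as every listed gene whose symbol begins with EIF1 to EIF6, without the EIF2AK kinases and the EIF4EBP binding proteins. They were 47 of the 24994 features in the files, each with 1 listed transcript. No gene name was found for 8985 of the 25005 transcripts, which could hold further members. By symbol, 3 encode subunits of eIF2, 5 of eIF2B, 14 of eIF3 and 13 belong to the eIF4 group, while 12 encode other factors. Polyadenylated RNA of HEK293, a human embryonic kidney cell line grown as a monolayer, was sequenced in 10 libraries. In 4 groups of 2 libraries, A and B, cells received 4-thiouridine (4SU) and 365 nm ultraviolet light, 4SU without light, 254 nm light without 4SU, or neither (untreated). 4SU, a uridine analogue that cells build into new RNA, was given at 1 mM for the last 12 to 14 h before harvest. A single library was made after transfection of an siRNA against HuR, an RNA-binding protein encoded by ELAVL1, and a single one after transfection of an siRNA against GFP, both without 4SU or light. All groups share the cell line and the serum medium, but the labels do not state whether A and B were separate cultures. The p-values therefore measure the spread between these libraries, which may be technical and was estimated largely across genes.

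Initiation begins when eIF2, a GTP-binding trimer, brings the initiator tRNA to the small ribosomal subunit. eIF2B reloads eIF2 with GTP and is blocked when stress kinases phosphorylate the alpha subunit of eIF2. eIF3, the largest of the factors, holds the small subunit, while eIF4E binds the mRNA cap, eIF4G bridges the cap to eIF3, and the helicase eIF4A opens the leader. eIF1, eIF1A and eIF5 select the start codon, and eIF5B joins the large subunit. Many mRNAs of the translation machinery open with a C followed by pyrimidines, the 5′ terminal oligopyrimidine (TOP) tract, through which mTOR signalling controls their translation.

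Start-site sequences are shown because members of the same complex differed in this tract. RefSeq promoter windows (GRCh38.p14) were available for 37 of the 43 members that could be tested. Each window runs from 10 bases before the annotated start to 20 bases from it. In 9 of the 37 (24.3%), a listed start opened on the transcribed strand with C and a run of at least 5 C or T letters, against 5.14% of 27305 genes. Capitals mark that run.
EIF2S3 (chrX:24054946-24054975, plus strand): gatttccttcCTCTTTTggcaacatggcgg
EIF2A (chr3:150546777-150546806, plus strand): cgagcggtttCTCTTTCCgggacaacatgg
EIF2D (chr1:206612446-206612475, minus strand): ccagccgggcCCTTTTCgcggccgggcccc
EIF3D (chr22:36529147-36529176, minus strand): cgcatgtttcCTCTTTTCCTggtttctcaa
EIF3F (chr11:7987327-7987356, plus strand): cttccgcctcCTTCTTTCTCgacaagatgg
EIF3K (chr19:38619178-38619207, plus strand): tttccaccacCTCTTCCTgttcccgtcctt
EIF3M (chr11:32583821-32583850, plus strand): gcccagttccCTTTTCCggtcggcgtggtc
EIF4A2 (chr3:186783567-186783596, plus strand): gcgccgctgtCTTTTCagtcgggcgctgag
EIF4B (chr12:53006446-53006475, plus strand): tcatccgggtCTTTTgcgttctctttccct
Partners of the same complexes without such a run are given for contrast.
EIF2S1 (chr14:67360318-67360347, plus strand): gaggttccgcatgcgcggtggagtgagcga
EIF3J (chr15:44537137-44537166, plus strand): ccgccgtgctaactcctcgctagctctccc
EIF4A1 (chr17:7572815-7572844, plus strand): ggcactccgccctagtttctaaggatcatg

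The 8 libraries of the 4 groups held 2238569 to 3099769 tags, so a floor of 3 tags equalled 0.968 to 1.34 per 1000000 tags. The HuR siRNA library had 9016803 tags and the GFP siRNA library 8688262. Libraries differed in the length of the transcripts that held their tags. Weighted by tags, the median length in 4SU with 365 nm libraries was 1147 and 1431 nt, against 2373 and 2850 nt with 4SU alone. In 254 nm libraries it was 1534 and 1305 nt, against 2666 and 3029 nt in untreated ones. Among the HEK293 markers, IRS4, NEFL and KRT18 were at 14.5 or more normalised tags per 1000000 (CPM) in all 8 libraries, while NEFM, KRT8 and PAX2 stayed at or below 7.66. VIM ranged from 0 in untreated library B to 16.8 CPM. Of 8 markers of other cell types 6 were in the files, and their sum was 11.2 and 9.75 CPM after 4SU with 365 nm, 2.26 and 1.5 with 4SU alone, 2.71 and 4.86 after 254 nm, and 2.57 and 0 in untreated cells. HBA1, a red cell globin, made up 7.82 and 8.36 CPM of the first pair and was at 0 in both libraries with 4SU alone, while COL1A2, of connective tissue, was at 0 throughout. Whether this bears on the results was not tested.

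Levels of different members in untreated cells were set side by side as TMM-normalised tags per kilobase of transcript per 1000000 tags. EIF3K, a peripheral subunit of eIF3, stood highest with 419 and 399, followed by EIF5A with 399 and 281 and by EIF1 with 298 and 268. The ranges of EIF3K and EIF5A met at 399, and those of EIF5A and EIF1 overlapped. Median levels were 127 for the 13 tested eIF3 genes, 51.1 for 12 eIF4 genes, 38.1 for 3 eIF2 genes and 26.2 for 5 eIF2B genes. The eIF3 subunits did not lie at a common level, since EIF3I had 186 and 193, EIF3F 51.8 and 51.9, and EIF3J, a loosely bound subunit, 18.4 and 29.3. EIF3C had 1.72 and 2.38, but its near-identical copy EIF3CL makes that value uncertain. EIF4E, the cap-binding protein itself, had 2.90 and 2.95 on its only listed transcript, and EIF4E3, a relative of it, 2.67 and 4.72. Levels below are TMM-normalised tags per 1000000 (CPM), which compare libraries for 1 gene, and changes are edgeR log2 fold changes with an approximate standard error.

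Of the 47 genes, 43 had enough tags to be tested. EIF3CL had at most 2 tags, EIF4E1B at most 1 and EIF5AL1 at most 6 in any of the 8 libraries, and the fourth untested gene is a Y-linked copy of EIF1AX that is not reported. In 19 members some tags were shared with other transcripts in at least 1 library, so their values are uncertain. Among those named below, these are EIF1, EIF1AD, EIF1AX, EIF2A, EIF2S1, EIF2S3, EIF3C, EIF3I, EIF3K, EIF3M, EIF4A1, EIF4A2, EIF4B, EIF4E, EIF4G3, EIF5A and EIF5AL1.

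Feeding 4SU without light was compared first. None of the 43 passed the test upward and 3 passed it downward, against 3.85% higher and 3.69% lower of the 13731 genes tested. In edgeR 9 of the 43 had an unadjusted p under 0.05 in either direction, against 2982 of the 13731 genes. DESeq2 called 0 members higher and 2 lower, and its share of all genes is not given here. The members' median log2 fold change was -0.26, against 0.02 for all genes, and 15 of the 43 lay above the median of all genes. EIF2B3, the gamma subunit of the exchange factor eIF2B, had 15.8 and 14.6 CPM with 4SU, against 47.7 and 56.6 CPM in untreated cells. The groups did not overlap, and the log2 fold change of -1.78 ± 0.34 (SE, edgeR adjusted p 0.00068) passed the test under each alternative tried. EIF5B, the GTPase of subunit joining, had 85.9 and 126 CPM with 4SU, against 176 and 384 CPM in untreated cells. EIF4G3, a paralogue of the scaffold eIF4G1, had 39.3 and 65.8 CPM with 4SU, against 77.5 and 177 CPM in untreated cells. Neither pair of groups overlapped, and in both genes untreated library B lay well above untreated library A. The log2 fold changes were -1.40 ± 0.37 for EIF5B (adjusted p 0.0131) and -1.27 ± 0.35 for EIF4G3 (adjusted p 0.0178). Without untreated library B they were -0.75 (adjusted p 0.283) and -0.57 (adjusted p 0.4), and without 4SU library A they were -1.17 (adjusted p 0.217) and -0.97 (adjusted p 0.355). The count of genes that fell was 1 without either of these libraries and 8 without untreated library A. EIF4G3 also missed the threshold under library totals instead of TMM factors (adjusted p 0.0521) and in DESeq2 (adjusted p 0.0558).

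All 5 eIF2B genes were below 0 with 4SU alone, at -0.21 to -1.78, but EIF2B3 was the only one of them to pass. eIF3 genes had a median of -0.39 with none of 13 past the test, and eIF4 genes -0.25 with 1 of 12. Of the 13 eIF3 genes 2 had an unadjusted p under 0.05, against 2982 of the 13731 genes. Of the 3 eIF2 genes, none passed, with 0 at an unadjusted p under 0.05. EIF2S1, the alpha subunit that stress kinases phosphorylate, had 154 and 104 CPM with 4SU, against 128 and 186 CPM in untreated cells, and the groups overlapped (-0.28 ± 0.34, adjusted p 0.676).

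**Figure D1:**
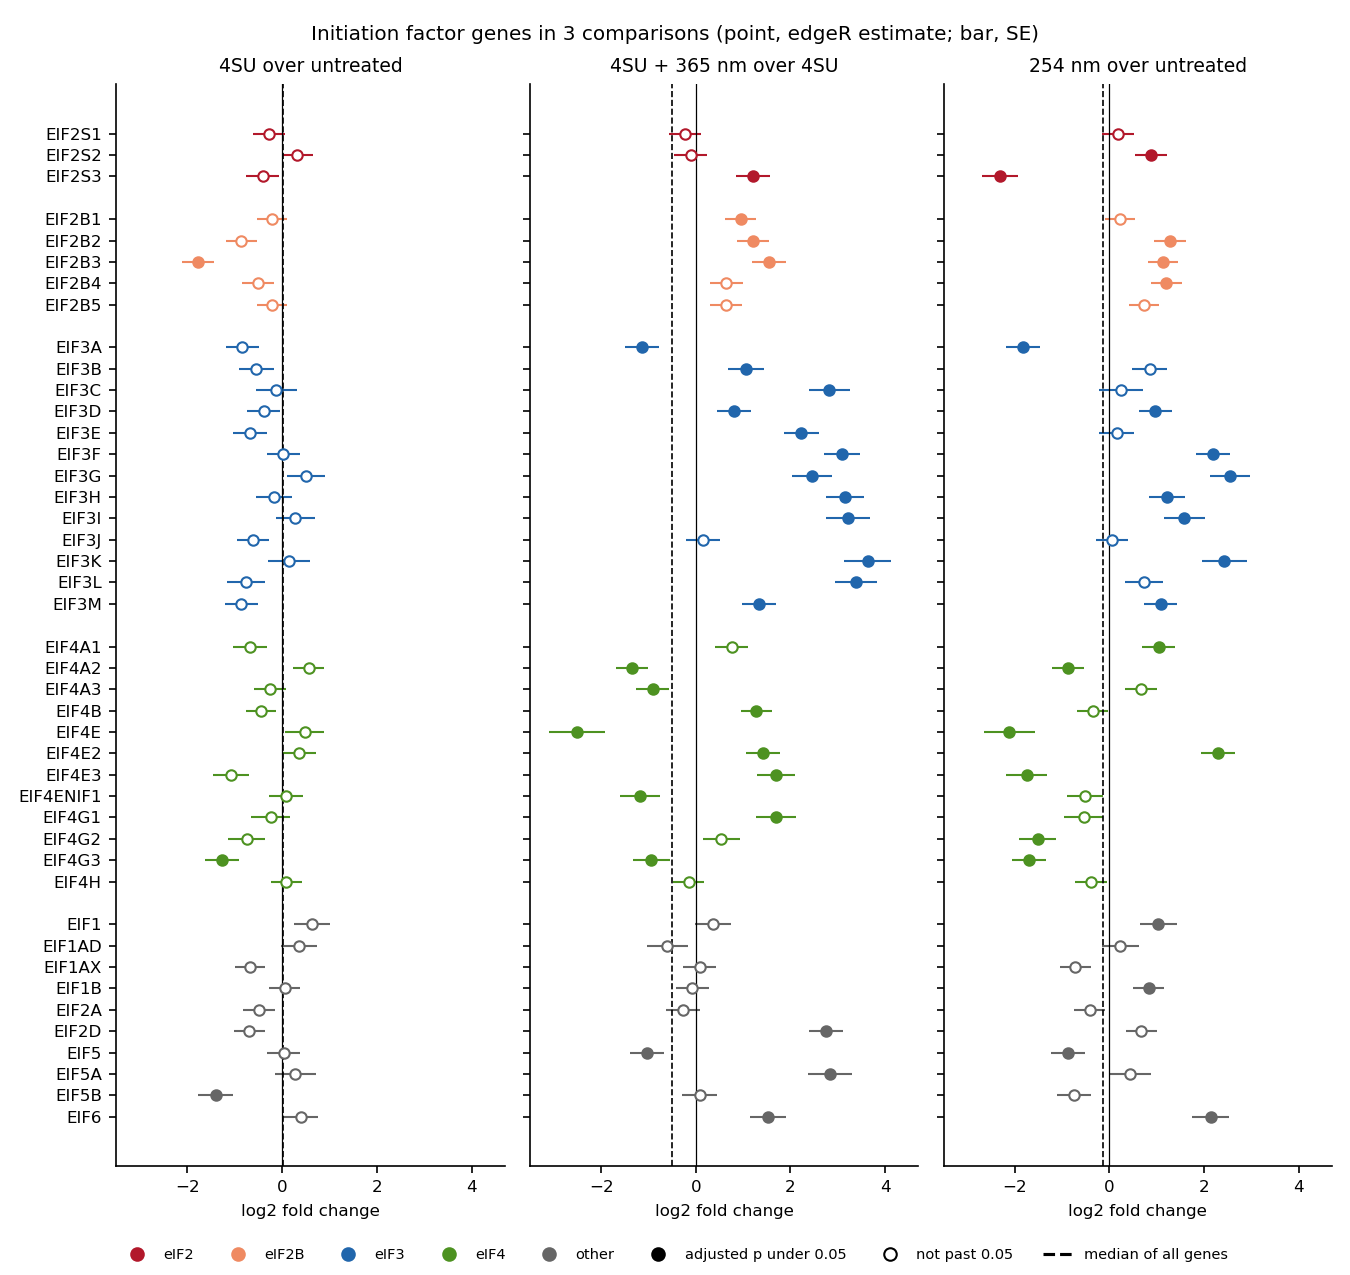
Log2 fold change of the 43 tested genes (points; bars, SE) in 3 comparisons, by factor group; filled points passed an adjusted p of 0.05 and the dashed line is the median of all 13731 genes. The eIF3 genes lie furthest right after 365 nm light with a median of 2.46, while eIF4 genes spread from -2.50 to 1.70; under library totals instead of TMM factors all values after 365 nm light shift left, and the eIF3 median is 0.55.

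The second comparison set 4SU with 365 nm light against 4SU alone, and shares its 4SU libraries with the first comparison. Here 22 of the 43 genes rose and 7 fell, against 26.1% higher and 33.7% lower of all genes tested, which is 51.2% and 16.3% of the members. Their median log2 fold change was 0.81 where that of all genes was -0.50, and 35 of the 43 lay above the median of all genes. The number that fell was 2 without 4SU with 365 nm library A, 3 without library B of that group and 3 without 4SU library B. Directions depended on the scaling. With library totals the median of all genes moved to -2.39 and the members' to -1.10, with 6 higher and 23 lower. These are 14.0% and 53.5% of the members, against 7.52% higher and 72.4% lower of all genes. Again 35 of 43 lay above the median of all genes. Of the 22 rises 16 did not pass upward under library totals and 12 of those had the opposite sign, among which EIF2B1 (-0.94, adjusted p 0.0249) and EIF3D (-1.10, adjusted p 0.00837) passed downward. With RLE factors the medians were -0.25 for all genes and 1.07 for the members, with 25 higher and 3 lower. Of all genes 29.3% were higher and 26.2% lower with RLE factors.

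The third comparison set 254 nm light against untreated cells and shares no library with the second. After 254 nm light 16 genes rose and 8 fell, against 25.2% higher and 28.0% lower of all genes tested. The members' median was 0.44, against -0.14 for all genes, and 28 of 43 lay above that median. Without 254 nm library B, 7 rose and 5 fell. Under library totals, the median of all genes was -0.99 and that of the members -0.40, with 5 higher and 15 lower. These are 11.6% and 34.9% of the members, against 10.1% higher and 47.0% lower of all genes. In both comparisons 11 of the genes rose, 50.0% of those that rose after 365 nm and 68.8% of those that rose after 254 nm. In both 5 fell, namely EIF3A, EIF4A2, EIF4E, EIF4G3 and EIF5, which were 71.4% and 62.5% of the 2 lists. The overlap of calls among all genes was not counted, so these shares describe the members only. EIF2S3 and EIF4E3 rose after 365 nm and fell after 254 nm.

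The fourth comparison tested, gene by gene, the signed difference, the log2 fold change after 365 nm in 4SU-fed cells minus that after 254 nm. It passed as positive for 11 members and as negative for 1, against 9.99% higher and 7.08% lower of all genes tested. The members' median difference was 0.24, against -0.15 for all genes. EIF2S3, EIF3L, EIF4E3 and EIF5A passed under each alternative tried. Scaled by library totals, the median of all genes was -1.18, and 4 members were higher and 11 lower. These are 9.3% and 25.6% of the members, against 3.63% higher and 32.3% lower of all genes. Of the 11 positive differences 7 then no longer passed, namely those of EIF3C (1.53, adjusted p 0.0798), EIF4G1 (1.19, adjusted p 0.0791), EIF4G2 (1.04, adjusted p 0.13), EIF3E (1.02, adjusted p 0.135), EIF2D (1.01, adjusted p 0.143), EIF3H (0.87, adjusted p 0.212) and EIF4B (0.57, adjusted p 0.438).

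**Figure D2:**
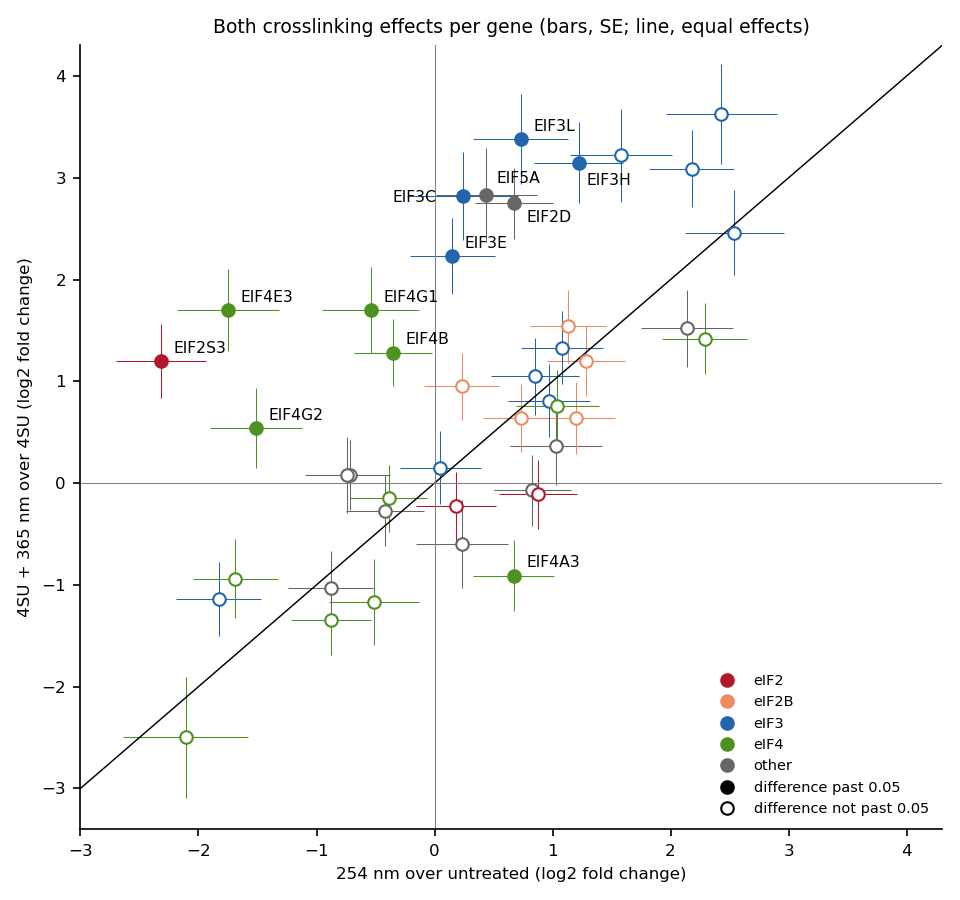
Log2 fold change of each gene after 365 nm light (y axis, over 4SU alone) and after 254 nm light (x axis, over untreated), with SE bars; the line marks equal effects and filled points passed the test of the difference. EIF2S3 and EIF4E3 sit furthest above the line, with differences of 3.52 and 3.45, and EIF4A3 sits below it at -1.57; with library totals the EIF2S3 and EIF4E3 differences are 2.42 and 2.41.

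Of the 3 subunit genes of eIF2, EIF2S3 passed in both crosslinking comparisons and EIF2S1 in neither. EIF2S3, the gamma subunit that binds GTP and the initiator tRNA, had 415 and 422 CPM after 4SU with 365 nm, against 187 and 177 CPM with 4SU alone. After 254 nm it had 63.7 and 33.5 CPM, against 192 and 295 CPM in untreated cells. In neither comparison did the groups overlap, and the libraries with 365 nm were the highest of the 8 while those with 254 nm were the lowest. The log2 fold change was 1.20 ± 0.36 after 365 nm (edgeR adjusted p 0.00423) and -2.32 ± 0.38 after 254 nm (adjusted p 3.56e-06). The difference of 3.52 ± 0.52 passed the test (adjusted p 3.53e-06) and was the largest of the 43. With library totals the change after 365 nm turned to -0.71 (adjusted p 0.0873), the change after 254 nm was -3.13, and the difference still passed at 2.42 (adjusted p 0.000418). EIF2S1, the alpha subunit, had 97.2 and 122 CPM after 4SU with 365 nm, against 154 and 104 CPM with 4SU alone. With 254 nm light it had 150 and 205 CPM, against 128 and 186 CPM in untreated cells. Both pairs of groups overlapped, with log2 fold changes of -0.23 ± 0.34 and 0.18 ± 0.34. EIF2S2, the beta subunit, changed by -0.11 after 365 nm without passing and rose by 0.88 after 254 nm (adjusted p 0.0243). Without 254 nm library B the rise was 0.66 (adjusted p 0.217), without untreated library A it was 0.58 (adjusted p 0.185), and with library totals it was 0.01 (adjusted p 0.992). The start of EIF2S3 opens with the pyrimidine run CTCTTTT shown above, and EIF2S1 has none. No window was used for EIF2S2, so its start was not examined.

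Of the 5 genes of the exchange factor eIF2B, 3 rose after 365 nm (median 0.95) and 3 after 254 nm (median 1.13), and none fell. These rises are 60.0% of the group in each comparison, against 26.1% and 25.2% of all genes. With library totals the medians were -0.94 and 0.24, with 3 lower after 365 nm and none called after 254 nm. Those 3 are 60.0%, against 72.4% lower of all genes. EIF2B3 had 39.1 and 48.7 CPM after 4SU with 365 nm, against 15.8 and 14.6 CPM with 4SU alone. Cells given 254 nm light had 91.3 and 137 CPM, against 47.7 and 56.6 CPM in untreated cells. Groups did not overlap in either comparison, and the 2 libraries with 4SU alone were the lowest of the 8. The log2 fold changes were 1.54 ± 0.36 (adjusted p 0.000416) and 1.13 ± 0.32 (adjusted p 0.00333), with -0.35 after 365 nm with library totals. EIF2B4, the delta subunit, had 40.2 and 56.4 CPM after 4SU with 365 nm, against 30.2 and 32.2 CPM with 4SU alone. The 254 nm libraries had 76.4 and 128 CPM, against 43.6 and 45.3 CPM in untreated cells. Although the first pair of groups did not overlap, its change of 0.64 ± 0.35 did not pass (adjusted p 0.109), while the change of 1.20 ± 0.33 after 254 nm did (adjusted p 0.00238). Without 254 nm library B the changes after 254 nm were 0.81 for EIF2B3 (adjusted p 0.114) and 0.78 for EIF2B4 (adjusted p 0.13). For EIF2B1 and EIF2B2, which rose by 0.95 and 1.20 after 365 nm, the values without 4SU with 365 nm library B were 0.72 (adjusted p 0.172) and 0.85 (adjusted p 0.121). EIF2B1 also missed the threshold without 4SU library A (0.99, adjusted p 0.0582) or 4SU library B (0.90, adjusted p 0.0898). No eIF2B gene passed the edgeR test of the difference between the kinds of light, with 0 at an unadjusted p under 0.05, against 4335 of 13731 genes.

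Of the 13 eIF3 genes, 11 rose and 1 fell after 365 nm light, with a median of 2.46 beside -0.50 for all genes. These are 84.6% and 7.69%, against 26.1% and 33.7% of all genes. Their median was 0.55 with library totals, beside -2.39 for all genes, and 5 were higher and 3 lower. That is 38.5% and 23.1%, against 7.52% and 72.4% of all genes. EIF3K had 5903 and 4350 CPM after 4SU with 365 nm, against 458 and 368 CPM with 4SU alone. Libraries from 254 nm cells had 1458 and 2539 CPM, against 381 and 363 CPM in untreated cells. Every irradiated library exceeded every library without light. The changes were 12.4-fold after 365 nm (log2 3.63 ± 0.49, adjusted p 5.7e-08) and 5.37-fold after 254 nm (log2 2.43 ± 0.47, adjusted p 3.91e-05), and their difference of 1.21 did not pass (adjusted p 0.181). EIF3L, which pairs with EIF3K at the edge of the complex, had 2663 and 1748 CPM after 4SU with 365 nm, against 198 and 225 CPM with 4SU alone. Under 254 nm light it had 527 and 658 CPM, against 318 and 398 CPM in untreated cells. It changed by 3.38 ± 0.44 after 365 nm (adjusted p 2.16e-08) and by 0.73 ± 0.40 after 254 nm (adjusted p 0.12), and the difference of 2.66 ± 0.57 passed (adjusted p 0.000856).

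EIF3F, EIF3H and EIF3M belong to the octameric core of eIF3, as do EIF3E, EIF3K, EIF3L, EIF3A and EIF3C. EIF3H had 1509 and 1040 CPM after 4SU with 365 nm, against 161 and 127 CPM with 4SU alone. After 254 nm it had 323 and 437 CPM, against 151 and 175 CPM in untreated cells. Neither pair of groups overlapped, and the log2 fold changes were 3.15 ± 0.40 (adjusted p 2.16e-08) and 1.22 ± 0.38 (adjusted p 0.00651). The difference of 1.93 (adjusted p 0.00952) missed the threshold without 4SU with 365 nm library A (1.66, adjusted p 0.0626) and without 254 nm library A (1.74, adjusted p 0.068), and the change after 254 nm did so without 254 nm library B (0.98, adjusted p 0.0928). EIF3E had 696 and 492 CPM after 4SU with 365 nm, against 148 and 105 CPM with 4SU alone. With 254 nm light it had 197 and 248 CPM, against 171 and 231 CPM in untreated cells. The first pair of groups lay apart and the second overlapped, with changes of 2.23 ± 0.37 (adjusted p 2.8e-06) and 0.15 ± 0.36 (adjusted p 0.743) and a difference of 2.09 ± 0.51 (adjusted p 0.00328). With library totals the change after 365 nm was 0.30 (adjusted p 0.48). EIF3C had 41.3 and 41.1 CPM after 4SU with 365 nm, against 7.35 and 4.50 CPM with 4SU alone. Cells given 254 nm light had 8.13 and 6.80 CPM, against 5.35 and 7.41 CPM in untreated cells. Its difference of 2.58 ± 0.63 passed (adjusted p 0.0034), on 37 and 59 tags against 26 and 24, and 18 and 14 tags against 27 and 28.

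EIF3A, the scaffold subunit and with 5305 nt the longest of the 13 eIF3 transcripts, went the other way. It had 70.4 and 87.0 CPM after 4SU with 365 nm, against 133 and 215 CPM with 4SU alone. The 254 nm libraries had 107 and 68.5 CPM, against 235 and 389 CPM in untreated cells. Neither pair of groups overlapped, and the log2 fold changes were -1.14 ± 0.36 (adjusted p 0.00717) and -1.83 ± 0.36 (adjusted p 5.7e-05). After 365 nm the call was lost without 4SU with 365 nm library A (-0.99, adjusted p 0.0916) and without 4SU library B (-0.76, adjusted p 0.141). In DESeq2 the EIF3A fall after 365 nm missed the threshold (-0.89, adjusted p 0.0501). EIF3J was the eIF3 gene that passed in neither comparison, with 42.4 and 45.3 CPM after 4SU with 365 nm, against 46.9 and 32.8 CPM with 4SU alone. Libraries from 254 nm cells had 49.3 and 76.7 CPM, against 47.1 and 74.9 CPM in untreated cells. The remaining rises after 365 nm were those of EIF3I (3.22), EIF3F (3.09), EIF3G (2.46), EIF3M (1.33), EIF3B (1.05) and EIF3D (0.81). EIF3B was 0.54 (adjusted p 0.364) without 4SU with 365 nm library B, 0.99 (adjusted p 0.0799) without 4SU library A and 1.11 (adjusted p 0.0537) without 4SU library B. EIF3D missed the threshold when any 1 of the 4 compared libraries or 254 nm library B was left out, at 0.77 to 0.86. After 254 nm 7 eIF3 genes rose, led by EIF3G at 2.54 ± 0.42 (adjusted p 4.57e-06), and EIF3A was the 1 that fell. With library totals 3 were higher and 1 lower after 254 nm, with a median of 0.09 beside -0.99 for all genes. That is 23.1% and 7.69%, against 10.1% and 47.0% of all genes. EIF3D (0.09), EIF3M (0.19), EIF3H (0.34) and EIF3I (0.70) then no longer passed. Under TMM factors the 7 and 1 are 53.8% and 7.69% of the eIF3 genes, against 25.2% and 28.0% of all genes. Without 254 nm library B, EIF3D (0.77), EIF3H (0.98) and EIF3M (0.72) missed the threshold, and EIF3D (0.85) and EIF3M (0.75) also did without untreated library A.

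**Figure D3:**
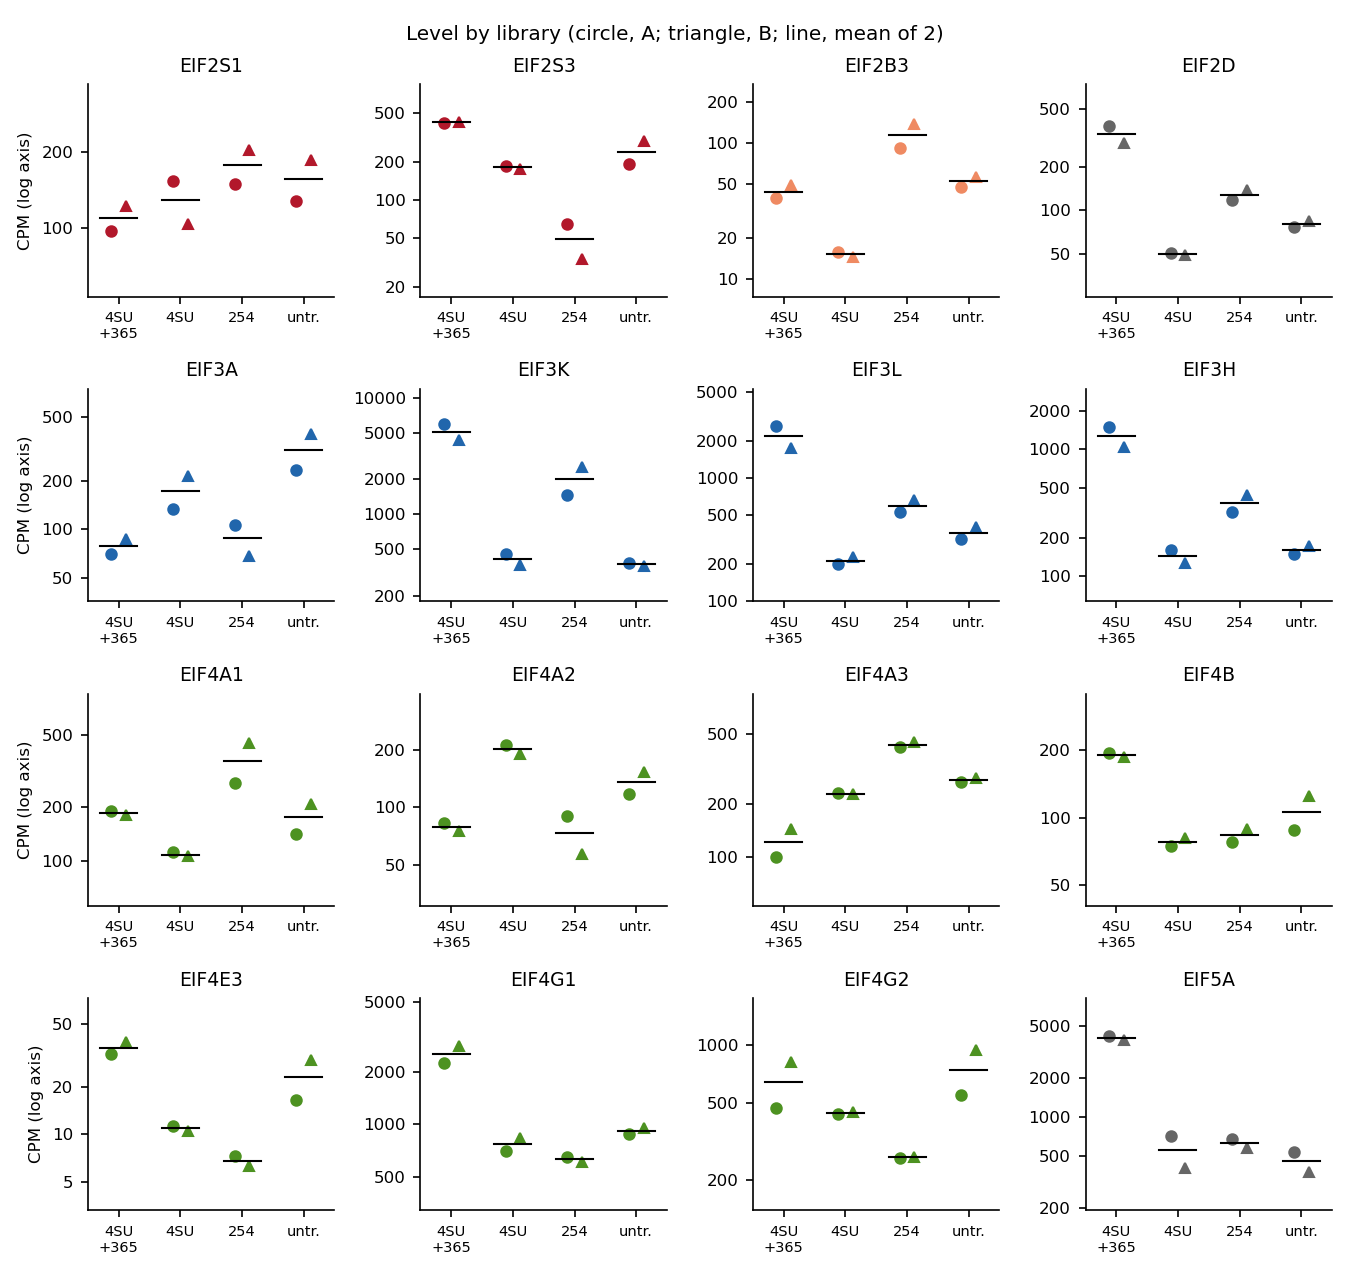
Level of 16 genes in each of the 8 libraries (log axis, CPM; circles, library A; triangles, library B; line, mean of 2). EIF2S3, EIF4G1 and EIF5A are highest after 4SU with 365 nm, EIF3K is higher and EIF3A lower with either light; levels rest on TMM factors, and with library totals EIF2S3 and EIF4G1 change by -0.71 and -0.19 after 365 nm.

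In the eIF4 group 4 of 12 genes rose and 5 fell after 365 nm, with a median of 0.20, and 2 rose and 5 fell after 254 nm, with a median of -0.52. After 365 nm these are 33.3% and 41.7% of the group, against 26.1% and 33.7% of all genes. For 254 nm they are 16.7% and 41.7%, against 25.2% and 28.0%. Under library totals, the medians were -1.67 and -1.36. The paralogues within the group did not move together. EIF4G1, the scaffold between cap and ribosome, had 2238 and 2800 CPM after 4SU with 365 nm, against 707 and 839 CPM with 4SU alone. Under 254 nm light it had 648 and 611 CPM, against 877 and 953 CPM in untreated cells. Both pairs of groups lay apart, but only the rise of 1.70 ± 0.42 after 365 nm passed (adjusted p 0.000712), while the change after 254 nm was -0.54 ± 0.41 (adjusted p 0.271). The difference was 2.24 ± 0.59 (adjusted p 0.00606). Scaled by library totals, the change after 365 nm was -0.19.

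EIF4G2, also known as DAP5, lacks the eIF4E-binding site and supports cap-independent initiation. It had 473 and 817 CPM after 4SU with 365 nm, against 440 and 450 CPM with 4SU alone. After 254 nm it had 260 and 264 CPM, against 549 and 944 CPM in untreated cells. The fall of -1.51 ± 0.39 after 254 nm passed (adjusted p 0.00137), the change of 0.54 after 365 nm did not (adjusted p 0.222), and the difference was 2.05 ± 0.55 (adjusted p 0.00755). Without 4SU with 365 nm library B, the higher of its pair, the difference was 1.60 (adjusted p 0.105). EIF4G3 had 27.9 and 27.2 CPM after 4SU with 365 nm, against 39.3 and 65.8 CPM with 4SU alone. With 254 nm light it had 35.7 and 43.2 CPM, against 77.5 and 177 CPM in untreated cells. It fell by 0.94 after 365 nm (adjusted p 0.035) and by 1.69 after 254 nm (adjusted p 0.000159). The first of these calls was lost in DESeq2 (-0.68, adjusted p 0.213) and without 4SU library B (-0.52, adjusted p 0.357), 4SU with 365 nm library A (-0.95, adjusted p 0.125), library B of that group (-0.92, adjusted p 0.172) or 254 nm library A (-0.86, adjusted p 0.056).

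The helicases EIF4A1 and EIF4A2 are near-identical proteins that can replace each other in the cap-binding complex. EIF4A1 had 190 and 180 CPM after 4SU with 365 nm, against 112 and 107 CPM with 4SU alone. Cells given 254 nm light had 270 and 452 CPM, against 142 and 208 CPM in untreated cells. Under TMM factors it was higher with either light, by 0.76 ± 0.35 after 365 nm, which did not pass (adjusted p 0.0605), and by 1.04 ± 0.35 after 254 nm, which did (adjusted p 0.0107). With library totals EIF4A1 was lower after 365 nm (-1.16, adjusted p 0.0057), and its change after 254 nm was 0.15 (adjusted p 0.761). EIF4A2 had 82.6 and 75.2 CPM after 4SU with 365 nm, against 211 and 190 CPM with 4SU alone. The 254 nm libraries had 90.4 and 57.3 CPM, against 118 and 154 CPM in untreated cells. No group pair overlapped, and EIF4A2 fell by 1.35 after 365 nm (adjusted p 0.001) and by 0.88 after 254 nm (adjusted p 0.0251). The EIF4A2 changes were -3.26 and -1.70 with library totals, so both helicase genes were then lower after 365 nm. Without 254 nm library B the 254 nm values were 0.63 for EIF4A1 (adjusted p 0.249) and -0.59 for EIF4A2 (adjusted p 0.295). Without untreated library A the EIF4A1 value was 0.79 (adjusted p 0.0932), and without untreated library B the EIF4A2 value was -0.69 (adjusted p 0.121). The listed transcripts have similar lengths of 1844 nt for EIF4A1 and 1905 nt for EIF4A2, and EIF4A2 opens with the run CTTTTC while EIF4A1 has none of the required length.

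EIF4A3, despite its name a core protein of the exon junction complex, was the 1 member with a negative difference, the change after 365 nm minus that after 254 nm, that passed. It had 99.4 and 143 CPM after 4SU with 365 nm, against 231 and 228 CPM with 4SU alone. Libraries from 254 nm cells had 421 and 452 CPM, against 268 and 282 CPM in untreated cells. Under TMM factors groups lay apart in both comparisons and in opposite directions, at -0.91 ± 0.35 (adjusted p 0.0256) and 0.67 ± 0.34 (adjusted p 0.0995). Both changes were negative with library totals (-2.79 and -0.20) and when the trend with transcript length was removed (-1.33 and -0.11). The fall after 365 nm missed the threshold with RLE factors (-0.66, adjusted p 0.112) and in DESeq2 (-0.65, adjusted p 0.0717). The difference under TMM factors was -1.57 ± 0.49 (adjusted p 0.022). That difference missed the threshold without any 1 of 5 libraries, at -1.32 to -1.87 with adjusted p from 0.0521 to 0.154, and with RLE factors. These were both 4SU with 365 nm libraries, both 254 nm libraries and 4SU library A. The change after 365 nm was -0.67 (adjusted p 0.24) without 4SU with 365 nm library A, and it missed the threshold without library B of that group, either 4SU library or 254 nm library A, at -0.83 to -1.21.

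EIF4B, the cofactor that stimulates eIF4A, had 194 and 185 CPM after 4SU with 365 nm, against 74.6 and 81.5 CPM with 4SU alone. Under 254 nm light it had 77.7 and 89.4 CPM, against 87.8 and 125 CPM in untreated cells. It rose after 365 nm by 1.28 ± 0.33 (adjusted p 0.00117; -0.65 with library totals) and overlapped between the groups at 254 nm, with a difference of 1.62 ± 0.46 (adjusted p 0.012). The difference was 1.66 (adjusted p 0.0506) without 4SU with 365 nm library B, 1.57 (adjusted p 0.0593) without 4SU library A and 1.54 (adjusted p 0.0694) without 254 nm library A. Its start carries the shortest of the runs, CTTTT.

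Among the cap-binding proteins, EIF4E was measured on few tags after irradiation. EIF4E had 4.47 and 2.79 CPM after 4SU with 365 nm, or 4 tags in each library, against 23.7 and 16.1 CPM with 4SU alone. After 254 nm it had 5.42 and 0.971 CPM, or 12 and 2 tags, against 14.1 and 14.3 CPM in untreated cells. It fell by 2.50 (adjusted p 0.000466) and by 2.11 (adjusted p 0.000979), and without 254 nm library B the change after 254 nm was -1.38 (adjusted p 0.0678). Counts this low make the fitted falls imprecise. EIF4E3 had 32.4 and 38.3 CPM after 4SU with 365 nm, against 11.3 and 10.5 CPM with 4SU alone. With 254 nm light it had 7.23 and 6.31 CPM, against 16.6 and 29.4 CPM in untreated cells. Like EIF2S3 it was highest of all after 4SU with 365 nm and lowest after 254 nm, with changes of 1.70 ± 0.40 (adjusted p 0.000461; -0.19 with library totals) and -1.75 ± 0.43 (adjusted p 0.00078). Its difference of 3.45 ± 0.59 passed (adjusted p 3.89e-05). EIF4E2, which binds the cap in repressed mRNAs, rose in both comparisons by 1.42 ± 0.35 (adjusted p 0.000796) and 2.29 ± 0.36 (adjusted p 2.16e-06). EIF4ENIF1, which carries eIF4E to the nucleus, fell by 1.17 after 365 nm (adjusted p 0.0171). That call was lost without 4SU with 365 nm library A (-1.02, adjusted p 0.111), library B of that group (-1.36, adjusted p 0.0734) or 4SU library B (-1.02, adjusted p 0.104). The EIF4ENIF1 fall also missed the threshold with RLE factors (-0.91, adjusted p 0.0626) and in DESeq2 (-0.91, adjusted p 0.0963). EIF4H, a further helicase cofactor, passed in neither comparison.

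Among the other factors, EIF5A and EIF2D rose most after 365 nm. EIF5A, a hypusine-bearing protein that acts in elongation and termination, had 4147 and 3860 CPM after 4SU with 365 nm, against 716 and 407 CPM with 4SU alone. Cells given 254 nm light had 672 and 582 CPM, against 541 and 381 CPM in untreated cells. The 365 nm libraries lay far above the other 6, with a 7.13-fold change (log2 2.83 ± 0.46, adjusted p 1.68e-06), while the change after 254 nm was 0.44 ± 0.43 (adjusted p 0.393) and the difference 2.39 ± 0.61 (adjusted p 0.00523). EIF2D, which can deliver tRNA to the ribosome without GTP, had 381 and 292 CPM after 4SU with 365 nm, against 50.6 and 48.9 CPM with 4SU alone. The 254 nm libraries had 118 and 137 CPM, against 76.5 and 84.2 CPM in untreated cells. Groups lay apart in both, with changes of 2.75 ± 0.35 (adjusted p 1.54e-08) and 0.67 ± 0.33 (adjusted p 0.0816), and the difference was 2.08 ± 0.47 (adjusted p 0.00143). EIF6, which keeps the large subunit from joining early, rose by 1.52 after 365 nm (adjusted p 0.000826) and by 2.14 after 254 nm (adjusted p 1.61e-05).

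EIF5, the GTPase-activating protein of eIF2, had 191 and 163 CPM after 4SU with 365 nm, against 397 and 324 CPM with 4SU alone. Libraries from 254 nm cells had 177 and 206 CPM, against 253 and 452 CPM in untreated cells. It fell by 1.03 (adjusted p 0.0142) and by 0.88 (adjusted p 0.036), but the first call was lost without 4SU with 365 nm library A (-1.14, adjusted p 0.0552), library B of that group (-0.92, adjusted p 0.136) or 4SU library A (-0.88, adjusted p 0.0842). The second was lost without untreated library B (-0.41, adjusted p 0.415), either 254 nm library or either 4SU with 365 nm library. The EIF5 fall after 365 nm also missed the threshold with RLE factors (-0.77, adjusted p 0.0691) and in DESeq2 (-0.77, adjusted p 0.0626). That after 254 nm did so with RLE factors (-0.83, adjusted p 0.0508). EIF5B had 86.0 and 136 CPM after 4SU with 365 nm, against 85.9 and 126 CPM with 4SU alone. Under 254 nm light it had 138 and 196 CPM, against 176 and 384 CPM in untreated cells. Both pairs of EIF5B groups overlapped. EIF1 and EIF1B rose after 254 nm by 1.03 (adjusted p 0.0225) and 0.83 (adjusted p 0.0308). Both calls were lost without either 254 nm library or untreated library B, and that of EIF1 also without untreated library A, at 0.95 to 1.10 for EIF1 and 0.70 to 0.86 for EIF1B. EIF1AX, EIF1AD and EIF2A passed in neither comparison.

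Transcript length moved with these values. Across the 43 genes Spearman's rho between length and log2 fold change was -0.49 after 365 nm and -0.83 after 254 nm, against -0.45 and -0.65 across all 13731 genes. It was -0.39 with 4SU alone and 0.22 for the difference. These are descriptions across genes, which share libraries and are not independent. The 13 eIF3 transcripts had a median length of 1516 nt and the eIF2B transcripts one of 1886 nt. When the length trend of each library was removed, 21 members rose and 4 fell after 365 nm, 9 rose and 3 fell after 254 nm, and 13 were higher and 1 lower in the difference. Shares higher and lower of all genes were then 26.2% and 20.9%, 19.0% and 16.7%, and 13.2% and 6.2%. Of the eIF3 genes 9 rose and none fell after 365 nm under that setting, with a median of 1.61, and 4 rose and 1, EIF3E (-0.84, adjusted p 0.0305), fell after 254 nm, with a median of 0.44. The genes EIF3C (3.39), EIF3L (3.27), EIF4E3 (2.80), EIF2D (2.79) and EIF4G1 (2.76) then had the highest values after 365 nm. Of the 7 falls after 365 nm 4 no longer passed, those of EIF3A (-0.11, adjusted p 0.78), EIF4ENIF1 (-0.42, adjusted p 0.366), EIF4G3 (0.18, adjusted p 0.683) and EIF5 (0.01, adjusted p 0.971). Of the 22 rises 5 no longer passed, those of EIF2B2 (0.60, adjusted p 0.106), EIF3D (0.67, adjusted p 0.0576), EIF3M (0.29, adjusted p 0.49), EIF4E2 (0.09, adjusted p 0.83) and EIF6 (0.56, adjusted p 0.118). After 254 nm 6 of the 8 falls no longer passed with the trend removed, those of EIF3A (-0.66, adjusted p 0.0783), EIF4G2 (-0.75, adjusted p 0.0605), EIF4G3 (-0.31, adjusted p 0.455), EIF4E (-1.10, adjusted p 0.0974), EIF4E3 (-0.41, adjusted p 0.423) and EIF5, which was at 0.41. Of the 16 rises 10 no longer passed, and EIF3H was at -0.01, EIF1 at -0.13, EIF3M at -0.20 and EIF1B at -0.59. EIF2S3 was still lower after 254 nm at -1.78 (adjusted p 0.000123) and its difference was 3.67 (adjusted p 4.51e-07). Uridine made up 15.9% to 33.6% of the transcripts, and its rho with the change was -0.33 after 365 nm, -0.43 after 254 nm and 0.01 for the difference.

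**Figure D4:**
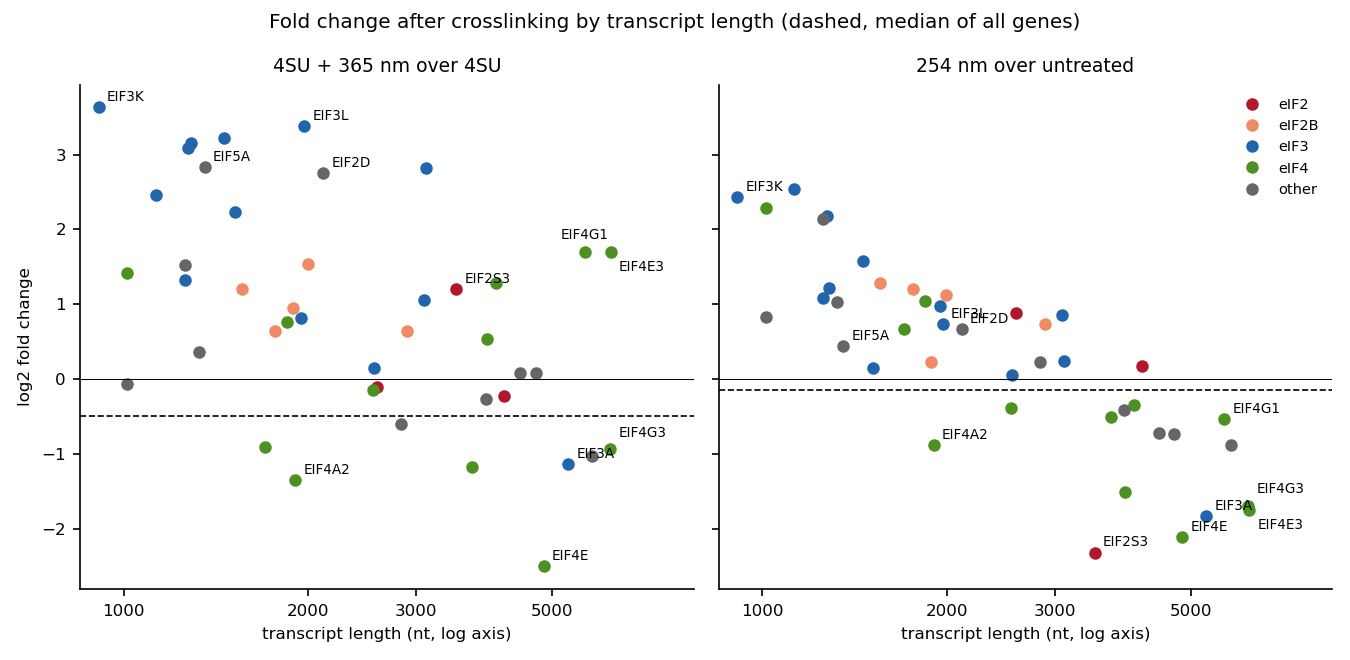
Log2 fold change of the 43 genes against transcript length (log axis) after 365 nm light (left) and 254 nm light (right), colored by factor group; the dashed line is the median of all genes. Values fall with length more tightly on the right (rho -0.83) than on the left (rho -0.49), where EIF4G1 and EIF4E3 lie high among long transcripts under TMM factors and at -0.19 with library totals.

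Genes with the start-site run were described beside those without it, with no test. The 9 genes with the run had a median log2 fold change of 1.28 after 365 nm, with 7 higher and 1 lower, against 0.59 for the 28 without, with 11 higher and 5 lower. After 254 nm the medians were 0.67 and 0.23, and for the difference 0.91 and 0.01. With 4SU alone they were -0.41 and -0.23. Within the run group values after 365 nm reached from -1.35 for EIF4A2 to 3.63 for EIF3K, which spans nearly the whole range of the genes without it, -2.50 to 3.22. No window was used here for EIF2S2, EIF3A, EIF3E, EIF3G, EIF3H and EIF3L.

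Of 32 listed regulators and partners of initiation, all were tested. With 4SU alone 1 rose and 2 fell, 3.12% and 6.25% of them, against 3.85% and 3.69% of all genes. ATF4, the transcription factor made when eIF2 is phosphorylated, rose by 1.19 (adjusted p 0.0363), while ABCE1, a ribosome recycling factor, fell by 1.14 (adjusted p 0.0301) and DHX29, a helicase for structured leaders, by 1.57 (adjusted p 0.00439). After 365 nm 9 rose and 8 fell, with a median of -0.39, against 26.1% higher and 33.7% lower of all genes. After 254 nm 5 rose and 15 fell, with a median of -0.66, against 25.2% higher and 28.0% lower of all genes. With library totals 1 rose and 26 fell after 365 nm, and 2 rose and 21 fell after 254 nm. The falls are 81.2% and 65.6% of the regulators, against 72.4% and 47.0% of all genes. The rises are 3.12% and 6.25%, against 7.52% and 10.1%. With the length trend removed 12 rose and 3 fell after 365 nm, and 8 rose and 6 fell after 254 nm. Of all genes 26.2% then rose and 20.9% fell after 365 nm, and 19.0% rose and 16.7% fell after 254 nm. The values of single regulators that follow rest on TMM factors. With library totals the highest regulator value after 365 nm was 1.66, and at most 1 of the rises named here for that light still passed. RPS6KB2, another of the 32, had the highest TMM value after 365 nm, at 3.59 (adjusted p 1.32e-09). EIF4EBP1, which sequesters eIF4E, rose by 2.58 (adjusted p 6.74e-06) and by 2.79 (adjusted p 3.75e-06) in the 2 comparisons. LARP1, the protein that binds TOP mRNAs, fell by 2.07 after 365 nm (adjusted p 5.73e-06) and fell by 2.37 after 254 nm (adjusted p 1.11e-06). PPP1R15B, which directs the phosphatase to eIF2, fell by 2.46 after 365 nm (adjusted p 1.74e-06) and fell by 2.71 after 254 nm (adjusted p 3.56e-07). PABPC1, the poly(A)-binding partner of eIF4G, rose by 2.20 after 365 nm (adjusted p 1.46e-05) and changed by -0.57 after 254 nm (adjusted p 0.218), with a difference of 2.77 (adjusted p 0.000379). Among the eIF2 kinases, EIF2AK1, which senses heme, rose by 1.47 after 365 nm (adjusted p 0.000343). EIF2AK3, which senses stress of the endoplasmic reticulum, fell by 2.33 after 365 nm (adjusted p 0.00166) and by 1.60 after 254 nm (adjusted p 0.00598).

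The last comparison asked how the factors differed between HuR siRNA and GFP siRNA, with 1 library each and therefore no test. ELAVL1, the targeted gene, had 638 tags with HuR siRNA, against 1905 with GFP siRNA, a log2 ratio of -1.53 (95% exact counting interval -1.66 to -1.40, covering counting error only). Of the 43 members 5 were at least 1.5-fold higher and 4 at least 1.5-fold lower, against 17.8% higher and 19.6% lower of 17798 genes. The members' median log2 ratio was 0.04, against 0.007 for all genes. EIF5A had 6972 tags with HuR siRNA, against 3256 with GFP siRNA, a log2 ratio of 1.15 (1.09 to 1.21). EIF3G (0.93), EIF6 (0.88), EIF1 (0.68) and EIF1AD (0.62) were also past 1.5-fold upward, and the interval of EIF1AD, 0.38 to 0.86, reached below that fold. EIF2A, which delivers initiator tRNA under stress, had 672 tags with HuR siRNA, against 1463 with GFP siRNA, a log2 ratio of -1.07 (-1.21 to -0.94). EIF2S3 (-0.71), EIF5 (-0.69) and EIF3E (-0.63) followed, and the interval of EIF3E, -0.71 to -0.55, also reached inside 1.5-fold. Subgroup medians were 0.16 for eIF2B, 0.14 for eIF2, 0.07 for eIF3 and -0.10 for eIF4, and no eIF2B or eIF4 gene was past 1.5-fold. Untested in the other comparisons, EIF5AL1 had 9 tags with HuR siRNA, against 2 with GFP siRNA, and its interval of -0.05 to 5.47 included 0.

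**Figure D5:**
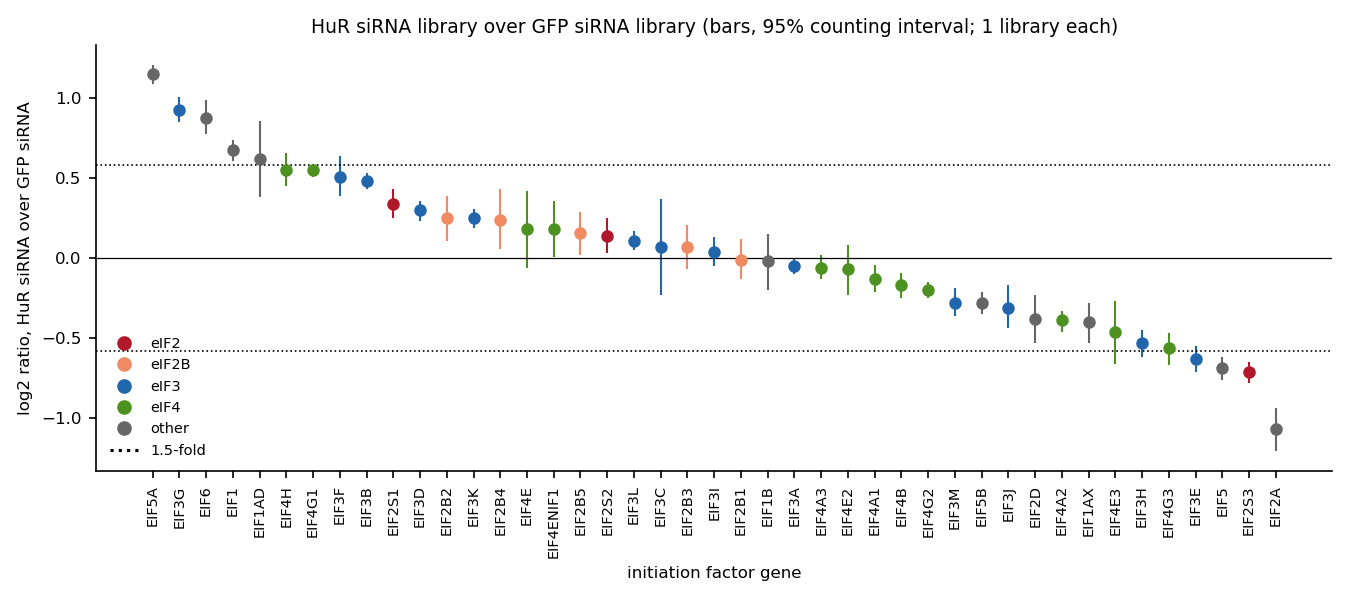
Log2 ratio of the HuR siRNA library over the GFP siRNA library for the 43 genes in descending order, with 95% counting intervals and dotted lines at 1.5-fold; there is 1 library per siRNA. EIF5A is highest at 1.15 and EIF2A lowest at -1.07, and eIF2B and eIF4 genes all lie between the dotted lines.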

How the data were processed

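The deposited files list transcripts with expected counts of tags, not normalized, and transcript lengths, per the file headers. Fractional values show that the authors split tags among transcripts. The aligner, the build and the annotation release: not given in the sources used here. Counts were rounded to whole tags, named by RefSeq accession (15886 of 25005 transcripts; 134 more by GENCODE) and summed per gene. For the 8 libraries, edgeR 4.0.16 (R 4.3.3) fitted a quasi-likelihood model with 1 mean for each group after TMM normalisation and filterByExpr. This tested 13731 genes, two-sided, with Benjamini-Hochberg adjustment over all of them and calls at an adjusted p under 0.05. Its biological coefficient of variation was 0.244, with 4 residual degrees of freedom for each gene and 40 prior degrees of freedom drawn from all genes. SE is the fold change divided by the root of its F statistic. Ratios of the siRNA pair were TMM-scaled with a prior count of 2. Intervals and floors cover counting error only. The procedure was tested on simulated data. The members, lists and tests were chosen with earlier results of these data known. Library values are given for each subgroup's highest and lowest gene after 365 nm, for genes called with 4SU alone or in the difference, and for EIF4A1, EIF4A2, EIF4E, EIF4G1, EIF4G2 and EIF2S1. Other members were chosen for mention after their values were seen.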

Additional observations from a re-analysis of the deposited data

Results flagged for a closer look

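For 12 of the 43 tested genes the effect of 365 nm light in cells with 4SU differed from that of 254 nm light by the edgeR test of the difference itself. In log2 units the difference was 3.52 for EIF2S3, 3.45 for EIF4E3, 2.66 for EIF3L, 2.58 for EIF3C, 2.39 for EIF5A, 2.24 for EIF4G1, 2.09 for EIF3E, 2.08 for EIF2D, 2.05 for EIF4G2, 1.93 for EIF3H, 1.62 for EIF4B and -1.57 for EIF4A3. Of all genes tested, 9.99% were higher and 7.08% lower. With library totals 7 of the 11 positive differences no longer passed, those of EIF2D (1.01), EIF3C (1.53), EIF3E (1.02), EIF3H (0.87), EIF4B (0.57), EIF4G1 (1.19) and EIF4G2 (1.04). The comparison joins wavelength with 4SU, which were not varied apart, so the contribution of each cannot be told apart.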

How the results depend on the processing

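Alternatives were library totals, RLE factors, DESeq2 1.42.0, no expression filter, a minimum of 5 CPM, only the groups compared, removal of the length trend, a replicate block, unsummed transcripts, an adjusted p under 0.01 and leaving out each library, where the lone sample is assumed to vary like the other groups. The compared groups alone give nothing new for the difference, which uses all 4.

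For genes higher and lower, the main counts were 0 and 3 with 4SU alone, 22 and 7 after 365 nm, 16 and 8 after 254 nm, and 11 and 1 in the difference. Library totals gave 6 and 23 after 365 nm, 5 and 15 after 254 nm, and 4 and 11 in the difference. Shares of all genes were then 7.52% and 72.4%, 10.1% and 47.0%, and 3.63% and 32.3%. RLE factors gave 3 lower after 365 nm and 0 lower in the difference. With the length trend removed, 5 were lower with 4SU alone, 4 lower after 365 nm, and 9 higher and 3 lower after 254 nm. With 4SU alone 5.3% of all genes were lower in that setting, against 11.6% of the members. DESeq2 gave 2 lower after 365 nm, and its share of all genes is not given here. At an adjusted p under 0.01, 1 was lower with 4SU alone, 3 lower after 365 nm and 0 in the difference. Leaving out each library gave 0 higher and 1 to 8 lower with 4SU alone, 18 to 23 and 2 to 7 after 365 nm, 7 to 16 and 5 to 11 after 254 nm, and 9 to 11 and 0 to 2 in the difference. The siRNA count of 9 was 9 with library totals or a prior count of 0.5.

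With library totals the changes after 365 nm turned to -0.35 for EIF2B3, -0.71 for EIF2S3, -0.65 for EIF4B, -0.19 for EIF4E3 and EIF4G1, -0.94 for EIF2B1, -0.68 for EIF2B2, -0.81 for EIF3B, -1.10 for EIF3D, -0.62 for EIF3M, -0.45 for EIF4E2 and -0.36 for EIF6. EIF1B turned to -0.03 after 254 nm. With the length trend removed they turned to 0.18 for EIF4G3 and 0.01 for EIF5 after 365 nm, and to -0.01 for EIF3H, -0.13 for EIF1, -0.59 for EIF1B, -0.20 for EIF3M and 0.41 for EIF5 after 254 nm. The cause was not tested. Of the calls, 1 of 3 with 4SU alone, 8 of 29 after 365 nm, 6 of 24 after 254 nm and 4 of 12 in the difference passed under all alternatives at 0.05.

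Letters A and B were not taken to pair the samples: the labels do not say what a letter shares, and each group has only 2 libraries. Deviations of same-lettered libraries correlated at 0.149 (365 nm with 4SU alone), 0.127 (254 nm with untreated) and 0.346 (4SU alone with untreated) in the groups compared, and at -0.081 to 0.049 in the others. With the replicate block, 4 were lower with 4SU alone, 22 higher and 7 lower after 365 nm, 18 and 9 after 254 nm, and 12 and 1 in the difference. With 2 libraries a group and 4 residual degrees of freedom, genes on few tags, such as EIF4E with 2 to 12 tags after irradiation, limit what can be resolved.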
